A study of Mus musculus with 6 samples.

Results

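The genes described here are *Tmem237* and 9 genes whose proteins work with it in the ciliary transition zone: *Tmem67*, *Tmem216*, *Tmem231*, *Tctn1*, *Tctn2*, *B9d1*, *B9d2*, *Cc2d2a* and *Rpgrip1l*. They were taken by name, and every transcript listed under these symbols was used, which gave 10 of 51802 gene symbols and 55 of 128603 transcripts. *Tmem237* was put forward by the study from RNA-seq of the same samples. Its own difference between genotypes is therefore given as a description, and no test result is used as support for it. The study also reports this change by RT-qPCR, which is outside the data used here. The question put to the other 9, called partners here, was whether the lower *Tmem237* level extends to them.

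Whole cochleae of 2-month-old mice on the C57/BL6J background were compared between wildtype (replicates 3, 4 and 5) and *Pou4f3(Δ/+)* mice (replicates 1, 2 and 3), with 3 samples of each genotype. *Pou4f3(Δ/+)* mice carry 1 knock-in allele of *Pou4f3*, a transcription factor of hair cells, with an 8 bp deletion and a C-to-T change, and 1 wildtype allele. The allele was made by targeting W4 embryonic stem cells and is present in all tissues. The labels do not say whether a sample holds 1 animal or several, so the p-values measure the spread between these samples. Hair cells are a small share of cochlear RNA, and in bulk RNA fewer cells of a type and less RNA per cell cannot be told apart.

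The transition zone is the short stretch at the base of a cilium, where Y-shaped links tie the microtubule doublets to the membrane. Its proteins form a gate that controls which membrane and signalling proteins enter the cilium. Mutations in the human genes of this complex cause ciliopathies such as Joubert and Meckel syndromes. In the cochlea, each developing hair cell bears a true cilium, the kinocilium, beside its stereocilia, and the kinocilium regresses as the mouse cochlea matures, while supporting cells and many other cochlear cells keep primary cilia.

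*Tmem237* encodes a membrane protein of the transition zone. It lies on the minus strand at chr1:59100590-59120408 (ENSMUSG00000038079, GENCODE M21 annotation of GRCm38) and was listed with 7 transcripts, of which 2 held 83.3% to 100% of its FPKM in every sample. FPKM counts fragments for each kilobase of a transcript, relative to the depth of the sample, and levels are compared between genes on this scale. Both transcripts, ENSMUST00000087475 and ENSMUST00000094917, are annotated as protein coding, have 13 exons and share 11 inner exons with the same boundaries. They differ in where they start. The first exon of ENSMUST00000094917 (143 bases, chr1:59119952-59120094) lies upstream, the start site of ENSMUST00000087475 lies 288 bases further along, and its first exon is 104 bases long (chr1:59119703-59119806). Both first exons are spliced to the same second exon. The coding part of each first exon is shown next, read from GRCm38 on the minus strand with the start codon in capitals, because it is the only part of the coding sequence by which the products of the transcripts differ.
ENSMUST00000087475: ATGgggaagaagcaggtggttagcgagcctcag
ENSMUST00000094917: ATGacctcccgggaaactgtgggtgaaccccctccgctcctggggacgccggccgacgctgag
The first stretch (chr1:59119703-59119735) holds 11 codons and the other (chr1:59119952-59120014) holds 21 codons, after which both transcripts share 1176 coding bases. Outside the first exons the transcripts differ by 7 bases at the 3′ end. Only 104 bases, 5.70% of the spliced length, belong to ENSMUST00000087475 alone, and 150 bases, 8.03%, belong to ENSMUST00000094917 alone. The remaining 1719 exonic bases are shared, so the division of reads between the transcripts rests on these short stretches.

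**Figure D1:**
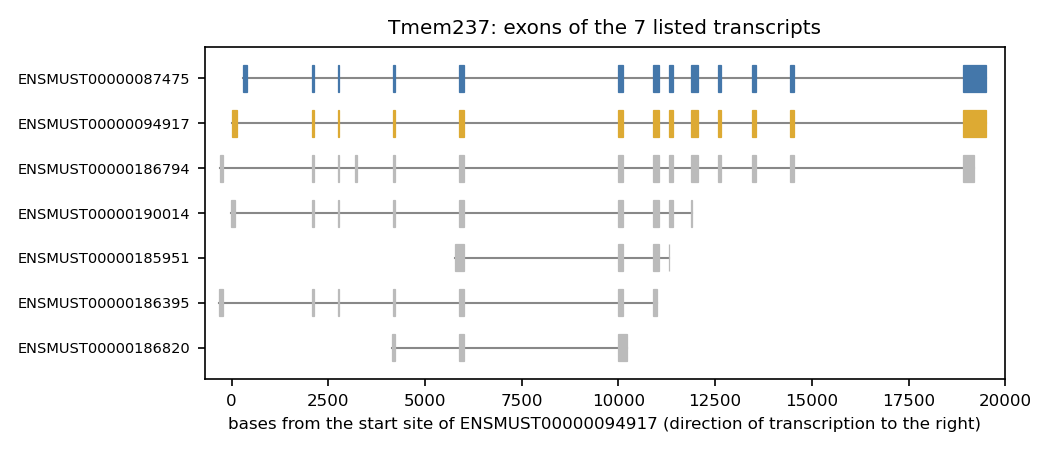
Exons (boxes) of the 7 *Tmem237* transcripts, placed by their distance in bases from the start site of ENSMUST00000094917, with the direction of transcription to the right. The transcripts in blue and yellow share 11 inner exons and begin 288 bases apart.

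The stretches in front of both start sites are printed because the transcripts differ mainly in their start. The first is the 250 bases before the RefSeq start next to the start of ENSMUST00000094917 (chr1:59120097-59120346, GRCm38.p6, minus strand). Its capitals mark letters of the form of an X-box, the motif that regulatory factor X proteins recognise in promoters of many ciliary genes. The other is the 145 bases between the end of the first exon of ENSMUST00000094917 and the start of ENSMUST00000087475 (chr1:59119807-59119951, minus strand), and no searched motif lies in it.
upstream of ENSMUST00000094917: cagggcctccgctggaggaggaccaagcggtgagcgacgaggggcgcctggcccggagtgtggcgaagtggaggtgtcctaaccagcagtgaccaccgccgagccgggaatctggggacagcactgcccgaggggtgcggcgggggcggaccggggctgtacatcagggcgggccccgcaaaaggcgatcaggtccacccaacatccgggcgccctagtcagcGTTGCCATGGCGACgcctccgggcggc
before ENSMUST00000087475: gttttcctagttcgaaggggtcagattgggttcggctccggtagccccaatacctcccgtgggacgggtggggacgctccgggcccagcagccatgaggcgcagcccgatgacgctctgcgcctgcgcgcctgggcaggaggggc

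The X-box was searched as GTNNCC, any 3 bases and then GNNAC, on both strands, in the RefSeq promoter windows from 250 bases before to 50 bases after each start. Windows were found for 9 of the 10 genes, 13 windows in all, and none was listed for *Tmem67*. The letters were present in 6 of the 13 windows, 1 in each of 6 genes, against 4.62% of all 32851 promoter windows. The matches in the 6 genes are set side by side on the strand of each gene, with the matching letters in capitals.
Tmem237: tagtcagcGTTGCCATGGCGACgcctccgg
Tmem231: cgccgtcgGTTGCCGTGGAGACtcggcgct
Tctn1: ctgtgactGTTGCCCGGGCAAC
B9d2: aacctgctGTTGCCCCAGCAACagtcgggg
Tctn2: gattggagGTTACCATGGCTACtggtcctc
Tmem216: tgtacgcaGTTTCCATGGGGACtgaacatg
In *Tmem237* the match began 27 bases before the start (chr1:59120102-59120131) and in *Tctn2* 62 bases before it (chr5:124598679-124598708). In *Tmem231* (chr8:111933781-111933810), *B9d2* (chr7:25680788-25680817), *Tmem216* (chr19:10555723-10555752) and *Tctn1* (chr5:122264411-122264432) it began 12, 17, 20 and 37 bases into the transcript. For *Tmem237* the match lay in the window of ENSMUST00000094917 and not in that of ENSMUST00000087475. The shorter stretch GTTGCC, which is part of 4 of the matches above, was found in 6 of the 13 windows and in 12.5% of all windows, and GTTACC in 3 and in 7.21%. Letters recognised by POU4 factors were found in 0 of the 13 windows, both as ATAATTAAT (0.274% of all windows) and as TAATTAA (3.07%). These matches describe letters in the windows and do not show that a factor binds.

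In wildtype cochleae nearly all *Tmem237* RNA was assigned to ENSMUST00000087475, and in *Pou4f3(Δ/+)* cochleae it was assigned to both. ENSMUST00000087475 stood at 5.97, 4.80 and 5.56 FPKM in wildtype replicates 3, 4 and 5 and at 2.35, 1.09 and 2.36 FPKM in *Pou4f3(Δ/+)* replicates 1, 2 and 3, with a log2 fold change of -1.50 (SE 0.33). ENSMUST00000094917 had 0 FPKM in each wildtype sample and 1.05, 3.53 and 1.29 FPKM in *Pou4f3(Δ/+)* replicates 1, 2 and 3. The genotypes did not overlap for either transcript, and *Pou4f3(Δ/+)* replicate 2 was at once the lowest for the first and the highest for the other. The mean of ENSMUST00000094917 in *Pou4f3(Δ/+)* cochleae was at least 17.4-fold higher than the level that 3 counts per library would give in wildtype, and at least 10.4-fold without replicate 2. The estimated counts behind these values were 188.0, 125.0 and 174.1 against 75.9, 30.8 and 63.1 for ENSMUST00000087475, and 34.9, 102.2 and 35.2 in *Pou4f3(Δ/+)* for ENSMUST00000094917. In share, ENSMUST00000087475 went from 92.2% ± 6.79 (SD, n = 3) of the gene's FPKM in wildtype to 45.0% ± 18.6 (SD, n = 3), while ENSMUST00000094917 held 25.7%, 76.4% and 29.4% in the *Pou4f3(Δ/+)* replicates.

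**Figure D2:**
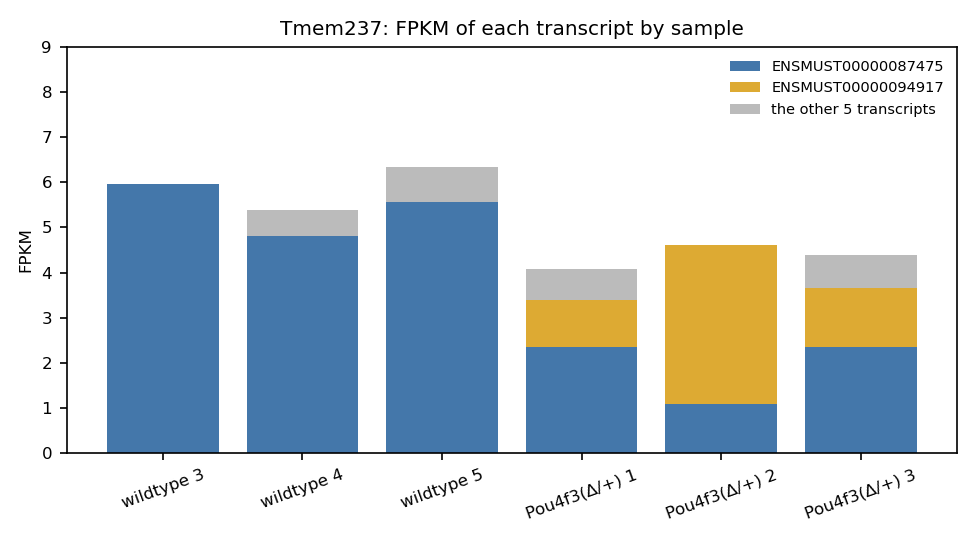
FPKM of the *Tmem237* transcripts in each of the 6 samples, stacked to the gene sum. ENSMUST00000094917 (yellow) is at 0 in the wildtype samples and between 1.05 and 3.53 FPKM in the *Pou4f3(Δ/+)* samples, and each *Pou4f3(Δ/+)* bar is lower than each wildtype bar.

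A listing of this form, at 0 in all 3 wildtype and above 0 in all 3 *Pou4f3(Δ/+)* samples, was seen in 23 of 30611 transcripts with a mean of at least 1 FPKM in the higher genotype (0.0751%). ENSMUST00000094917 met this floor only through *Pou4f3(Δ/+)*, and the reverse form was not counted, so nothing is read from this share. By edgeR's quasi-likelihood test, 0 of 38347 transcripts (0%) passed an adjusted p of 0.05, those of *Tmem237* included, and 1586 (4.14%) had an unadjusted p under 0.05. All 143 bases of the first exon of ENSMUST00000094917, and 0 bases of ENSMUST00000087475, are also covered on the opposite strand by exons of the antisense gene *G730003C15Rik*. That gene stood at 0.49, 0.36 and 0.55 FPKM in wildtype against at 0.29, 0.53 and 0.33 FPKM in *Pou4f3(Δ/+)* replicates 1, 2 and 3, with overlapping genotypes (log2 fold change -0.31, SE 0.39). Whether reads were counted by strand is not given in the sources used here, so reads of the antisense RNA and of this first exon may not have been told apart.

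The gene as a whole also stood lower. The 2 transcripts added up to 5.44 ± 0.594 FPKM in wildtype and, in *Pou4f3(Δ/+)*, to 3.89 ± 0.644 FPKM (SD, n = 3). Summed over all 7 transcripts, *Tmem237* stood at 5.97, 5.39 and 6.35 FPKM in wildtype replicates 3, 4 and 5 and at 4.08, 4.62 and 4.38 FPKM in *Pou4f3(Δ/+)* replicates 1, 2 and 3. Every *Pou4f3(Δ/+)* value lay below every wildtype value. The counts were 188, 129 and 185 against 117, 133 and 109, and the log2 fold change of these counts, which do not depend on how reads were divided among the transcripts, was -0.44 (SE 0.17). In CPM, counts relative to the depth of the sample, the gap between the genotypes was narrow, from 8.96 in wildtype replicate 4 to 8.72 in *Pou4f3(Δ/+)* replicate 2. Of the 17136 genes tested, 1130 (6.59%) lay lower in *Pou4f3(Δ/+)* without overlap in CPM and 1040 (6.07%) lay higher without overlap. None passed the test: 0 genes (0%) had an adjusted p under 0.05 by edgeR's quasi-likelihood test, *Tmem237* included, 1309 (7.64%) had an unadjusted p under 0.05, and DESeq2 called 64 (0.373%), none of them among these 10 genes.

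The 9 partners did not follow *Tmem237* as a group. Of the 9, 6 lay lower in *Pou4f3(Δ/+)* cochleae and 3 higher, and 50.6% of all genes tested lay lower. Their median log2 fold change was -0.04, beside -0.003 over all genes. None passed the test (adjusted p from 0.653 to 0.995), 0 of the 9 had an unadjusted p under 0.05, and the genotypes overlapped in CPM for all 9. The summed FPKM of the partners was 51.9, 51.9 and 53.5 in wildtype and 52.6, 43.9 and 54.0 in *Pou4f3(Δ/+)* replicates 1, 2 and 3. *Pou4f3(Δ/+)* replicate 2 was the lowest, and the other 2 lay within or above the wildtype range. *Tmem237* made up 10.3%, 9.40% and 10.6% of the summed FPKM of the 10 genes in wildtype and 7.20%, 9.53% and 7.51% in *Pou4f3(Δ/+)*, so by this ratio replicate 2 fell within the wildtype range.

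**Figure D3:**
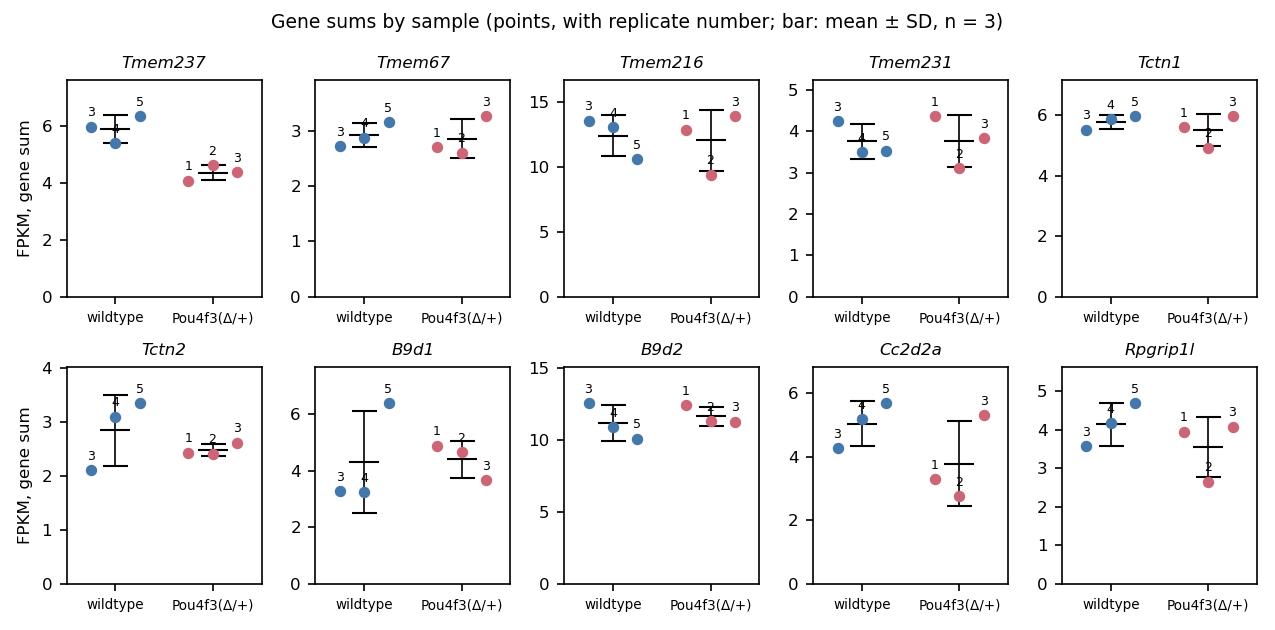
Gene sums in FPKM for the 10 genes in each sample (points, with the replicate number; lines: mean ± SD, n = 3 per genotype), each panel starting at 0. The genotypes are apart for *Tmem237*, and for each of the 9 partners they overlap.

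Among the tetraspan and other membrane partners, the genotypes overlapped closely. *Tmem67*, which encodes meckelin, a Frizzled-like receptor of the ciliary membrane (chr4:12039355-12090020), stood at 2.73, 2.88 and 3.16 FPKM in wildtype against 2.71, 2.61 and 3.27 FPKM in *Pou4f3(Δ/+)* (log2 fold change -0.03, 95% interval -0.36 to 0.31). *Tmem216*, a tetraspan protein gene (chr19:10533865-10556238), stood at 13.6, 13.1 and 10.6 FPKM against 12.9, 9.41 and 13.9 FPKM (-0.04, -0.43 to 0.34). *Tmem231* (chr8:111912011-111933881), whose product is needed for the assembly of the B9 complex, stood at 4.25, 3.50 and 3.53 FPKM against 4.37, 3.11 and 3.84 FPKM (0.004, -0.37 to 0.37). In each of these 3 genes a *Pou4f3(Δ/+)* sample was the highest of all 6 samples and another *Pou4f3(Δ/+)* sample, replicate 2, was the lowest.

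The tectonics are glycoproteins of the transition zone with a role in Hedgehog signalling. *Tctn1* (chr5:122237848-122264460) stood at 5.52, 5.87 and 5.96 FPKM in wildtype against 5.60, 4.93 and 5.97 FPKM in *Pou4f3(Δ/+)*, with a log2 fold change of -0.08 (95% interval -0.30 to 0.14). *Tctn2* (chr5:124598749-124627738) stood at 2.10, 3.09 and 3.34 FPKM against 2.43, 2.41 and 2.61 FPKM (-0.15, -0.60 to 0.30). Its *Pou4f3(Δ/+)* samples sat close together between the lowest wildtype sample and the other two. Most of the *Tctn2* signal, 76.3% to 90.8% of FPKM in each sample, was assigned to ENSMUST00000185820, a transcript annotated as processed and without a coding sequence.

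The B9 domain proteins are soluble members of the complex. *B9d1* (chr11:61505144-61512931) was measured least precisely, with 46, 37 and 86 counts in wildtype and 69, 58 and 44 counts in *Pou4f3(Δ/+)*. Its FPKM was 3.27, 3.25 and 6.38 against 4.89, 4.66 and 3.66, and the interval of its log2 fold change of 0.05 ran from -0.65 to 0.75. *B9d2* (chr7:25680780-25686558) stood at 12.6, 10.9 and 10.1 FPKM against 12.5, 11.3 and 11.3 FPKM (0.04, -0.27 to 0.35), and its *Pou4f3(Δ/+)* values lay inside the wildtype range.

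*Cc2d2a* and *Rpgrip1l* encode large coiled-coil proteins with C2 domains, the latter a scaffold on which other transition zone proteins depend. *Cc2d2a* (chr5:43662346-43740972) stood at 4.26, 5.18 and 5.67 FPKM in wildtype against 3.28, 2.75 and 5.29 FPKM in *Pou4f3(Δ/+)* replicates 1, 2 and 3. Replicates 1 and 2 were below all wildtype samples and replicate 3 was not. Its log2 fold change of -0.43 (SE 0.22, 95% interval -0.92 to 0.06, adjusted p = 0.653 by edgeR) was about the size of that of *Tmem237*, with a wider spread. With *Pou4f3(Δ/+)* replicates 1 and 2 left out, which leaves 1 sample of that genotype and restates the level of replicate 3, the value was 0.01 for *Cc2d2a* and -0.48 for *Tmem237*. With 1 sample left out, *Cc2d2a* ran from -0.71 without *Pou4f3(Δ/+)* replicate 3 (adjusted p = 0.0873 by edgeR, the lowest of its alternatives, which ran up to 1.00) to -0.26 without replicate 2. *Rpgrip1l* (chr8:91217030-91313262) stood at 3.57, 4.18 and 4.69 FPKM against 3.95, 2.66 and 4.08 FPKM (-0.16, -0.53 to 0.21), and *Pou4f3(Δ/+)* replicate 2 was again the lowest of the 6. Without that sample the value was -0.003.

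How large a fall these data could have missed differed between the partners. For 5 of the 9, namely *Tmem67*, *Tmem216*, *Tmem231*, *Tctn1* and *B9d2*, the 95% interval lay wholly above the log2 fold change of -0.44 seen for *Tmem237*. For the other 4, *Tctn2*, *B9d1*, *Cc2d2a* and *Rpgrip1l*, the interval held that value, so a difference of the same size was not separable from no difference. The value of -0.44 is itself an estimate from these samples (95% interval -0.82 to -0.06), and the partners' intervals overlap with its interval. The comparison therefore does not show that a partner differs from *Tmem237*.

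The levels of the 10 genes in wildtype spanned a narrow range of FPKM. *Tmem216* (12.4 ± 1.59, SD, n = 3) and *B9d2* (11.2 ± 1.26) were the highest and did not differ from each other beyond their spread. Below a gap that was larger than the spread came *Tmem237* (5.90 ± 0.483), *Tctn1*, *Cc2d2a*, *B9d1*, *Rpgrip1l* and *Tmem231* (3.76 ± 0.425), and no neighbours in this order differed beyond their spread. *Tmem67* (2.92 ± 0.218) and *Tctn2* (2.84 ± 0.656) were the lowest and did not differ from each other.

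**Figure D4:**
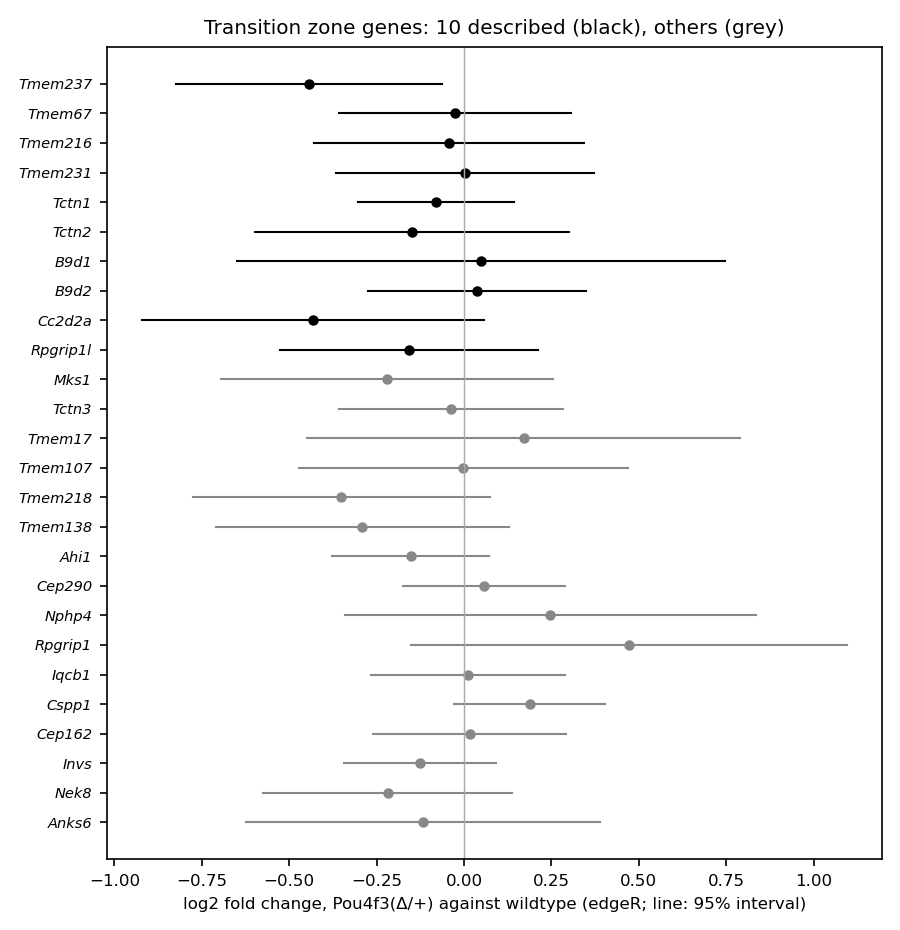
Log2 fold change, *Pou4f3(Δ/+)* against wildtype (points: edgeR estimates from 3 samples per genotype, lines: 95% intervals), for the 10 genes in black and 16 other transition zone genes in grey. *Tmem237* was chosen for its difference on these samples, so its interval is no test, and for each of the other 25 genes drawn the interval includes 0.

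Differences in transcript shares were smaller in the partners than in *Tmem237*. Of the 48 partner transcripts, 17 held a mean share of at least 10% of their gene in either genotype. The largest difference in mean share among these 17 was 5.54 percentage points, in ENSMUST00000102657 of *B9d1*. The shares did not overlap between genotypes for 1 of the 17, where 9.50% of 24262 such transcripts of all genes did not overlap. This was ENSMUST00000177148 of *Tctn1*, a retained intron transcript that reached the 10% mean share only in *Pou4f3(Δ/+)*, so that nothing is read from its difference. It stood at 5.80%, 4.43% and 6.88% in wildtype and 9.64%, 7.91% and 13.4% in *Pou4f3(Δ/+)*. With 3 samples against 3, an exact permutation test of a share cannot go below p = 0.1. Of the 17 partner transcripts with enough counts for a test of their level, 0 passed (lowest adjusted p 0.999), and 1, ENSMUST00000048150 of *Cc2d2a*, had an unadjusted p under 0.05. It stood at 1.28, 1.15 and 1.46 FPKM in wildtype against 0.97, 0.64 and 0.83 FPKM in *Pou4f3(Δ/+)*, without overlap, at 15.7% to 30.0% of the gene. A test of transcript shares within genes (diffSpliceDGE) called 50 of 8998 genes (0.556%) and 0 of the 6 partners it could test (adjusted p = 1.00 for each). In checks with known answers this test called many unchanged genes, so nothing is read from its calls.

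**Figure D5:**
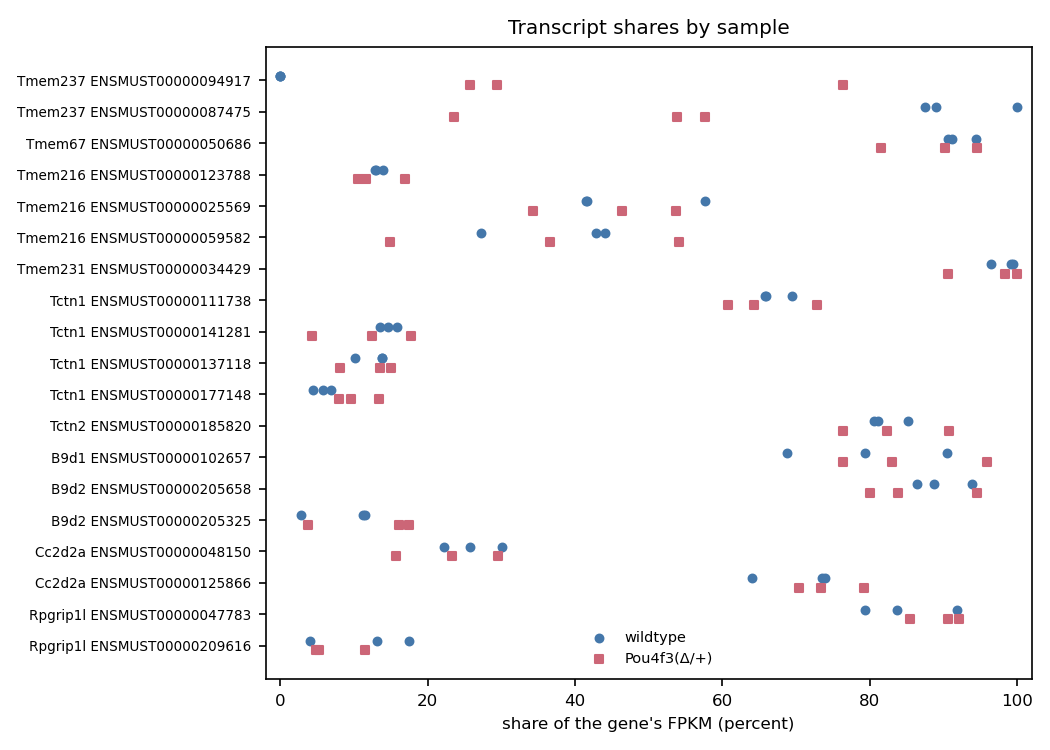
Share of each gene's FPKM, in percent, held by each transcript with a mean share of at least 10% in either genotype (one point per sample, circles wildtype, squares *Pou4f3(Δ/+)*). The genotypes are far apart for both *Tmem237* transcripts, and among the 17 partner transcripts they are apart only for ENSMUST00000177148 of *Tctn1*, which reached 10% only in *Pou4f3(Δ/+)*.

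Other genes of the transition zone also lay to both sides. Of 18 listed, 10 were lower and 8 higher, with a median log2 fold change of -0.02, and 0 passed the test. Of the genes named here, *Ahi1*, which encodes jouberin, lay lower without overlap, at 7.49, 7.64 and 7.85 FPKM against 6.80, 6.38 and 6.52 FPKM (-0.15, SE 0.10). *Cspp1*, a centrosome and spindle pole gene, lay higher without overlap, at 13.79, 15.25 and 14.96 FPKM against 20.3, 17.3 and 15.3 FPKM (0.19, SE 0.09). Over all genes tested, 6.59% lay lower and 6.07% higher without overlap in CPM, so nothing is read from these cases. The values of *Tmem218* (-0.35), *Tmem138* (-0.29), *Mks1* (-0.22) and *Nek8* (-0.22) overlapped, as did those of *Rpgrip1* (0.47), *Nphp4* (0.25) and *Tmem17* (0.17). Values between -0.13 and 0.06 were found for *Tctn3*, *Tmem107*, *Cep290*, *Iqcb1*, *Cep162*, *Invs* and *Anks6*.

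Most genes of the ciliary transport machinery had values below 0, and none passed the test. Of 26 intraflagellar transport genes, which carry cargo along the cilium, 21 were lower, with a median log2 fold change of -0.12 and 0 past the test. Over all genes tested, the share that lay lower was 50.6%. In *Pou4f3(Δ/+)* replicate 3 alone against wildtype, 12 of the 26 were lower and the median was 0.02. *Ift22* stood at 7.75, 8.09 and 11.2 FPKM in wildtype against 7.01, 6.51 and 7.47 FPKM in *Pou4f3(Δ/+)* (-0.31, SE 0.11), and *Ift140* at 22.90, 24.74 and 21.02 FPKM against 32.5, 31.0 and 22.1 FPKM (0.32, SE 0.11). Replicate 3 overlapped with wildtype for *Ift140*, and with protein-coding transcripts only its value was 0.13. These were the 2 of the 26 with an unadjusted p under 0.05, a share close to the 7.64% of all genes.

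Of 9 genes of the BBSome, the coat that moves membrane proteins out of cilia, with its GTPase *Arl6*, 8 were lower and the median log2 fold change was -0.19, again with 0 past the test. Over all genes tested, 50.6% were lower. *Ttc8*, which encodes the subunit BBS8, stood at 8.64, 7.97 and 9.77 FPKM in wildtype against 5.30, 5.20 and 6.26 FPKM in *Pou4f3(Δ/+)* (-0.53, SE 0.16, adjusted p = 0.643 by edgeR). *Arl6* stood at 6.22, 7.05 and 8.18 FPKM against 4.61, 5.50 and 6.17 FPKM (-0.38, SE 0.17). Both lay lower without overlap in CPM, as did 6.59% of all genes tested, and in FPKM the gap for *Arl6* was narrow (6.22 against 6.17). They were the 2 of the 9 with an unadjusted p under 0.05 by edgeR, beside 7.64% of all genes. As they were named for that p, nothing is read from their lack of overlap. In *Pou4f3(Δ/+)* replicate 3 alone against wildtype, 6 of the 9 were lower with a median of -0.11, and the values were -0.30 for *Ttc8* and -0.22 for *Arl6*.

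Among 11 genes of ciliary membrane and Hedgehog signalling, 6 were lower and 5 higher (median -0.06), and *Hhip*, a Hedgehog binding protein, was the one with an unadjusted p under 0.05 (-0.34, SE 0.13). It stood at 3.66, 3.79 and 3.19 FPKM in wildtype against 2.45, 2.45 and 3.28 FPKM in *Pou4f3(Δ/+)*, and replicate 3 overlapped. Of the 6 regulatory factor X genes, whose products bind the X-box, 5 were higher and 1 lower (median 0.08), and 0 had an unadjusted p under 0.05. *Rfx2* stood at 4.85, 4.45 and 4.07 FPKM against 5.65, 6.13 and 4.78 FPKM (0.31, SE 0.14), and *Rfx1* at 8.13, 7.90 and 8.11 FPKM against 9.48, 9.17 and 8.03 FPKM (0.12, SE 0.10). In *Pou4f3(Δ/+)* replicate 3 alone against wildtype the values were 0.09 for *Ift140*, -0.13 for *Hhip* and 0.08 for *Rfx2*.

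Genes of motile cilia were mostly low in these cochleae. Of 12 markers, *Dnai1* and *Dnai2* were not analysed here, and the mean log2 CPM of the list ran from 0.55 to 1.53 in wildtype and from 0.47 to 1.57 in *Pou4f3(Δ/+)*. Of the 10 tested, 7 were higher and 3 lower.

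In some lists of cell type markers most values lay to one side, although 0 markers of any list passed the test by edgeR. All 12 hair cell markers were detected, and their mean log2 CPM lay between 3.34 and 3.47 in wildtype and between 3.40 and 3.51 in *Pou4f3(Δ/+)* (median log2 fold change 0.07). Of 8 supporting cell markers 6 were higher and 2 lower. The summed FPKM of 6 stria vascularis markers was 416, 448 and 464 in wildtype and 327, 288 and 418 in *Pou4f3(Δ/+)* replicates 1, 2 and 3. By this sum replicate 3 was inside the wildtype range. In mean log2 CPM it stood at 7.373, below the wildtype values of 7.405, 7.452 and 7.536. Of the 6 stria markers 6 were lower, 3 of them without overlap in CPM, where 6.59% of all genes tested lay lower without overlap. All 9 B cell markers were higher, with a mean of 4.64, 4.81 and 4.48 against 5.61, 5.73 and 4.92 log2 CPM, as were 8 of 8 erythroid markers, and 6 of 8 bone markers were lower. The stria and B cell values lay farthest from wildtype in *Pou4f3(Δ/+)* replicates 1 and 2, the samples in which *Cc2d2a* was also lowest, and their part in the values of *Cc2d2a*, the transport genes and *Tmem237* was not tested. *Pou4f3* was counted 68, 72 and 88 times in wildtype and 66, 97 and 52 times in *Pou4f3(Δ/+)*, with both alleles counted together, so its total does not check the genotype labels. Summed counts ran from 14295069 to 17696784 per sample.

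The genes next to the 10 lay evenly to both sides. Of the 20 nearest tested protein-coding genes, 1 on each side, 10 were lower and 10 higher, with a median log2 fold change of -0.004. The one with an unadjusted p under 0.05, also the only one without overlap, was *Stradb*, a pseudokinase gene 104874 bases from *Tmem237*. It stood at 18.0, 18.7 and 19.0 FPKM in wildtype against 24.6, 22.1 and 20.7 FPKM in *Pou4f3(Δ/+)* (log2 fold change 0.32, SE 0.10, adjusted p = 0.643 by edgeR), so it was higher where *Tmem237* was lower. *Tmem216* has another transition zone gene, *Tmem138*, 14239 bases away on the same strand, and *Tmem138* stood at -0.29 (SE 0.18). Exons of *Tctn1* share 1574 bases (19.0% of its exonic bases) with *Hvcn1* on the opposite strand. Those of *Tmem67* share 289 bases with *Rbm12b2* and those of *Tmem216* share 169 bases with *Cpsf7*. Exons of *Tmem237* share 252 bases (10.55%) with *G730003C15Rik*. Without strand, some reads of these genes are uncertain, those of the *Tmem237* sum included.

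Across the 6 samples, the genes whose level in log2 CPM followed the *Tmem237* sum most closely were *Kdelr2* (Pearson r = 0.986), *Gpaa1* (0.985), *Cpt2* (0.984), *Ddost* (0.982) and *Selenok* (0.978), out of 12555 genes with a mean of at least 100 counts. Those most opposed were *Zfp984* (-0.988), *Ammecr1l* (-0.984), *Pde4d* (-0.981), *AU022252* (-0.976) and *Kansl1* (-0.976). The partners were not among them. For 8 partners r lay between -0.26 (*Tmem216*) and 0.37 (*Cc2d2a*), and *B9d1* had too few counts. These values describe 6 samples that also differ in genotype, depth and marker levels. The named genes are the extremes of 12555 over only 6 samples, so nothing is read from the height of their r or from the partners' absence.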

How the data were processed

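RNA-seq libraries of mouse cochlea (3 wildtype, 3 *Pou4f3(Δ/+)*, grouped by the labels' titles) were made by the authors after poly(A) selection or rRNA removal and read as pairs. The authors deposited 1 estimated count (expected count, not whole for 77.8% of the counts above 0, tolerance 0.001) and 1 FPKM value per transcript and sample. Aligner, counting program and strand setting are not given in the sources used here. The submitters' processing notes name mm8 and DESeq2, whereas 99.5% of the transcripts were found in GENCODE M21 (GRCm38), with the listed length equal to the genomic span for 97.2% of these, and coordinates are taken from that annotation.

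Counts were rounded, summed per gene symbol or kept per transcript, filtered (filterByExpr, minimum count 10, minimum total count 15), normalized by TMM and tested with edgeR 4.0.16 in R 4.3.3 (quasi-likelihood test, no covariates, Benjamini-Hochberg adjustment over all features, threshold 0.05). Of the 55 transcripts of the 10 genes, 19 passed this filter and 9 were listed at 0 FPKM in all samples. All 10 genes passed. Shares are percent of a gene's FPKM. A fold against samples at 0 uses 3 counts per library as the floor, which covers counting error only. Correlations used log2 CPM (prior count 2). Promoter sequences are RefSeq windows (GRCm38.p6). The tests were checked on simulated data. DESeq2 1.42.0 and limma 3.58.1 (limma-trend on log2(FPKM + 0.5)) served as alternatives, with Python 3.11.15 for the tables. The genes and lists were chosen with earlier results of these data known. Named are all 10 genes, the other transition zone genes, the genes of the remaining cilium lists with an unadjusted p under 0.05 or else the 2 with the smallest p, the nearest tested protein-coding genes, the 5 most and the 5 least correlated genes, and transcripts with a mean share of at least 10%. *G730003C15Rik*, and the neighbours picked out of the 20, were named after their values were seen. Symbols in the form of a date (24) were left out of the correlations. Some items that this rule selects are not reported here.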

Additional observations from a re-analysis of the deposited data

How the results depend on the processing

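No paired analysis was possible because the genotypes share only the replicate number 3. The number of genes past the threshold was 0 with edgeR, 64 with DESeq2, 9 without the filter, 1 with limma-trend on log2(FPKM + 0.1), 6 without *Pou4f3(Δ/+)* replicates 1 and 2, and 0 to 193 with 1 sample left out. The 193 came without *Pou4f3(Δ/+)* replicate 3 and 3 without wildtype replicate 4. The number of transcripts was 0, then 130, 1, 2 and 0 under the same settings, and 0 to 3 with 1 sample left out. Genes with a change in transcript shares numbered 50, 166 without replicates 1 and 2, and 80 to 115 with 1 sample left out. No partner was called in any of the gene settings. Partner transcripts with shares that did not overlap numbered 1 of 17, 0 for shares of counts, 15 without replicates 1 and 2, and 1 to 6 with 1 sample left out (3 without wildtype replicate 4, 6 without *Pou4f3(Δ/+)* replicate 2), since fewer samples overlap less often.

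*Tmem237* stayed lower in all 14 alternatives (log2 fold change -0.56 to -0.35). The share of ENSMUST00000094917 was higher by 27.6 to 52.9 percentage points. The partner median stayed between -0.12 and -0.0005. Directions turned for 7 genes, mostly from values near 0 (*Cc2d2a* from -0.43). Without *Pou4f3(Δ/+)* replicates 1 and 2, *Tmem67* stood at 0.16, *Tmem216* at 0.15, *B9d1* at -0.22, *B9d2* at -0.056, *Cc2d2a* at 0.014 and *Rfx1* at -0.056. *Tmem231* stood at -0.0017, -0.0026 and -0.00090 with pseudocounts of 0.5, 0.1 and 1, and at -0.015 with protein-coding transcripts only. With 1 sample left out the values ran from -0.12 to 0.028 for *Tmem67*, -0.14 to 0.096 for *Tmem216*, -0.12 to 0.11 for *Tmem231*, -0.11 to 0.44 for *B9d1* and -0.012 to 0.12 for *B9d2*. The cause was not tested. Of the partners whose direction held, with 1 sample left out *Tctn2* ran from -0.32 to -0.02 and *Rpgrip1l* from -0.26 to -0.003. *B9d1*, at 37 to 86 counts, is limited by depth and by the spread between samples.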
